A study of Mus musculus with 2 samples.

Results

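Cardiac potassium channel genes were taken as 8 genes chosen by name for their part in repolarization: Kcnd2, Kcnd3, Kcnip2, Kcnh2, Kcnj2, Kcnj3, Kcnj11 and Kcna5. Of the 25235 genes listed in either library, all 8 were listed, and 7 of them were among the 21471 genes listed in both. The data were single-nucleus RNA-seq of whole mouse heart, 1 library from an adult female at 9 weeks and 1 library from an aged female at 78 weeks. Both animals were F1 hybrids of a C57BL/6J mother (BL6) and a CAST/EiJ father (CAST), so that reads over a single-nucleotide polymorphism (SNP) could be given to either allele. The breed label names a ∆Xist-/+ mother, while the genotype label gives C57BL/6JxCAST/EiJ, the titles carry ++ and the study calls these hearts wild-type; the 8 genes are autosomal. The files hold reads summed over the nuclei with an active BL6 X chromosome, all cell types together, so a gene has 1 value per allele and age. With 1 library per age there is no replicate and no test: every interval is a 95% interval of counting error alone, exact except for Newcombe intervals of changes in the allelic ratio, and variation between animals was not measured. Reads were counted, and whether duplicates of 1 molecule were collapsed is not given in the sources used here, so the intervals may be too narrow.

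After each beat the cardiomyocyte returns to its resting potential through potassium currents that open in sequence. The transient outward current gives the early notch of the action potential, the delayed rectifiers carry the later return, and the inward rectifiers hold the resting potential. In the mouse ventricle the transient outward current dominates this return, while the acetylcholine-gated inward rectifier is mainly a current of the atria and the nodes.

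The pore-forming subunits of the transient outward current are encoded by Kcnd2 (chr6:21216109-21729805, plus strand) and Kcnd3 (chr3:105452203-105674002, plus), and its accessory calcium-binding subunit by Kcnip2 (chr19:45792346-45816432, minus). Among the delayed rectifiers, Kcnh2 (chr5:24319585-24351681, minus) encodes the ERG channel and Kcna5 (chr6:126532551-126535555, minus) a Shaker-type channel. Kcnj2 (chr11:111066164-111076825, plus) encodes the main subunit of the classical inward rectifier, Kcnj3 (chr2:55411782-55598145, plus) a subunit of the acetylcholine-gated channel and Kcnj11 (chr7:46097123-46100867, minus) the pore of the ATP-sensitive channel. These are the deposited loci on GRCm38, protein-coding and counted from 1. Exons cover 0.885% of the Kcnd2 locus, 2.80% of Kcnj3, 4.32% of Kcnd3, 13.5% of Kcnip2, 15.1% of Kcnh2, 51.1% of Kcnj2, 86.8% of Kcnj11 and 95.2% of Kcna5. Reads were given per locus, so exonic and intronic reads could not be told apart.

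Promoters are shown for the 3 genes on which the results turn: Kcnj3 and Kcnd2, which held most of the reads of the set, and Kcnip2, whose alleles differed most between the ages. The RefSeq promoter table for GRCm38.p6 gives 250 bases before and 50 bases after the annotated start and had an entry for 7 of the 8 genes. The windows are chr6:21215096-21215395 (plus) for Kcnd2, chr19:45816014-45816313 (minus) for Kcnip2 and chr2:55435720-55436019 (plus) for Kcnj3, printed 5′ to 3′, with capitals marking each GC box read as GGGCGG on the printed strand.
Kcnd2: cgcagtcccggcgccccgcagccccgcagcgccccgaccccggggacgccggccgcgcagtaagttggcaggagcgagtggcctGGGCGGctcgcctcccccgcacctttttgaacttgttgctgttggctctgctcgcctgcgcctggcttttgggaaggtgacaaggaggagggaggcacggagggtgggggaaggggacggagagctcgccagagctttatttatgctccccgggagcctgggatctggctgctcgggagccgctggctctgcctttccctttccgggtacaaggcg
Kcnip2: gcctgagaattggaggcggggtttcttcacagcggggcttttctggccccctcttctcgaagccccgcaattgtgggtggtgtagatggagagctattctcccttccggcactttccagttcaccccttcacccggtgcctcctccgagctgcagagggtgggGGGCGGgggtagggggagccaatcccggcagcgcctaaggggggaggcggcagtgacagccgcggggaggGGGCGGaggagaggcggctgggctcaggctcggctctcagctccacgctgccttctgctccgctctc
Kcnj3: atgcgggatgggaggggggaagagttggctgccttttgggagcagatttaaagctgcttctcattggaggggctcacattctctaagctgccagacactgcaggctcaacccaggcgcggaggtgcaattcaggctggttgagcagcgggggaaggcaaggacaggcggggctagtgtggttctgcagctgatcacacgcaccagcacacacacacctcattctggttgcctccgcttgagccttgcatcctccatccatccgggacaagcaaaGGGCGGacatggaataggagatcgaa
The Kcnd2 window held 26 CpG dinucleotides, the Kcnip2 window 18 and the Kcnj3 window 10. The start used for Kcnj3 lies 24.2 kb inside its deposited locus, so this locus also includes an upstream stretch. On both strands, GGGCGG was found in 5 of the 7 windows (all but Kcnd3 and Kcna5) and in 35.7% of the 32851 promoters of the table. The other motifs searched, again on both strands, were TATAAA (in 13.6% of all promoters), AGATAA (11.2%) and CACGTG (7.15%). Of these, CACGTG alone was found, once, in the window of Kcnj2, where it did not overlap a GC box. A match is a run of letters, and a missing one says only that these letters are not in this window.

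At 9 weeks, 9747535 SNP-overlapping reads fell on 24015 genes, and at 78 weeks 5805807 fell on 22691. Levels are given as reads of both alleles per 1000000 SNP-overlapping reads of all genes of the library (RPM), so 1 read is worth 0.103 RPM at 9 weeks and 0.172 RPM at 78 weeks. The allelic ratio is the BL6 share of a gene's reads, and its median over 12390 autosomal genes was 0.534 at 9 weeks and 0.537 at 78 weeks. The label of heart tissue was checked against 10 cardiomyocyte markers, which were all listed in both libraries and summed to 31743 RPM at 9 weeks and 29598 RPM in the aged heart.

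Of the 7 genes with at least 40 reads over both libraries, 6 were lower in the aged heart by at least 1.5-fold with an interval of the ratio below 1, and 0 were higher. By the same rule, 13.7% of 13508 autosomal genes were lower and 25.9% were higher. The ratio of aged to adult RPM had a median of 0.451 over the 7 genes, beside 1.14 over all genes tested, whose quartiles were 0.821 and 1.55. Summed over the 8 genes the level went from 5617 RPM at 9 weeks to 1251 RPM at 78 weeks, a ratio of 0.223 (0.217 to 0.228). That sum was set mostly by Kcnj3 and Kcnd2: without Kcnj3 the ratio was 0.338, and without both it was 0.512, the last chosen after seeing the data. Since all nuclei of a heart with an active BL6 X chromosome were pooled, fewer cells that express a gene and less RNA per cell cannot be told apart.

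**Figure D1:**
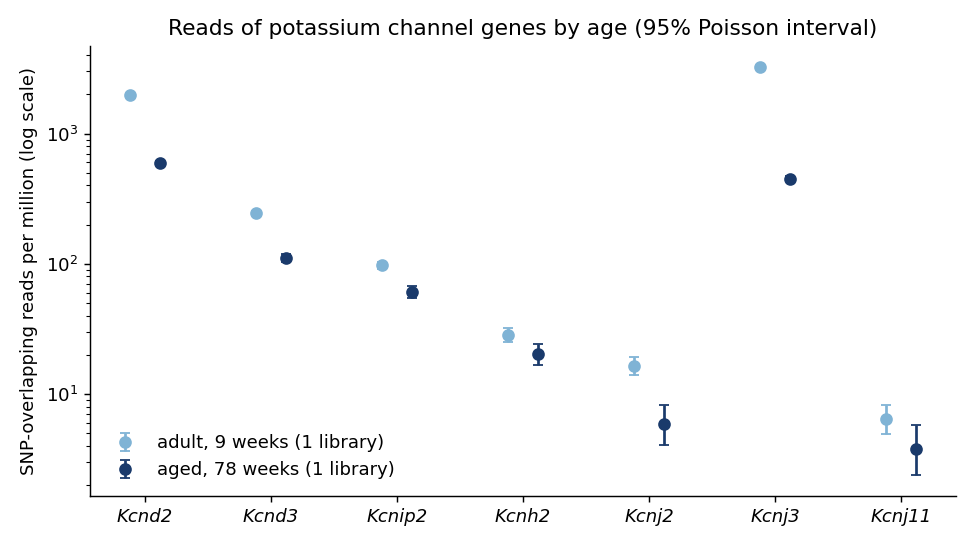
RPM (log axis) of the 7 genes listed in both libraries, at 9 weeks (light, adult) and 78 weeks (dark, aged); bars are 95% Poisson intervals of counting error. The aged value is the lower one for all 7, by 7.21-fold for Kcnj3 and by 1.40-fold for Kcnh2.

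Among the transient outward genes, Kcnd2 stood at 1975 RPM (1947 to 2003; 19252 reads) at 9 weeks and at 598 RPM (579 to 619; 3474 reads) at 78 weeks. The aged level was 3.30-fold lower, a ratio of 0.303 (0.292 to 0.314), and 359 of the 13508 genes had a ratio as low. It was the 38th gene by reads at 9 weeks and the 213th at 78 weeks. Kcnd3, the other pore subunit, stood at 246 RPM (236 to 256; 2397 reads) and 111 RPM (103 to 120; 644 reads). Its ratio was 0.451 (0.413 to 0.492), a 2.22-fold lower level. The intervals of the ages lay apart for both pore subunits. Within their summed reads, Kcnd2 took 88.9% (88.5 to 89.3) at 9 weeks and 84.4% (83.2 to 85.5) in the aged heart, a share that needs no scaling to the library. Kcnip2, which binds to the Kv4 channels encoded by Kcnd2 and Kcnd3, stood at 97.4 RPM (91.3 to 104; 949 reads) at 9 weeks and 61.0 RPM (54.8 to 67.7; 354 reads) at 78 weeks. Its ratio of 0.626 (0.553 to 0.708) was nearer to 1 than those of the pores, and reads of Kcnd2 per read of Kcnip2 went from 20.3 to 9.81.

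Among the delayed rectifiers, Kcnh2 stood at 28.5 RPM (25.3 to 32.1; 278 reads) at 9 weeks and 20.3 RPM (16.8 to 24.3; 118 reads) at 78 weeks. It was the 1 gene of the 7 whose ratio, 0.713 (0.570 to 0.887), did not reach 1.5-fold, although its interval lay below 1. Kcna5 was not listed at 9 weeks and had 1 read, from CAST, at 78 weeks (0.172 RPM). That gives no basis for a fold change or an allelic ratio at either age.

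Of the inward rectifiers, Kcnj3 differed most. It stood at 3247 RPM (3211 to 3283; 31650 reads) at 9 weeks, when it was the 16th gene by reads, and at 451 RPM (434 to 468; 2616 reads) at 78 weeks, when it was the 321st. The ratio of 0.139 (0.133 to 0.144) is a 7.21-fold lower level, and 71 of the 13508 genes had a ratio as low. Kcnj2 stood at 16.4 RPM (14.0 to 19.2; 160 reads) and 5.86 RPM (4.06 to 8.18; 34 reads), a ratio of 0.357 (0.239 to 0.519). Its intervals at both ages lay apart in spite of few reads. Kcnj11 had 63 reads at 9 weeks (6.46 RPM, 4.97 to 8.27) and 22 at 78 weeks (3.79 RPM, 2.38 to 5.74). Those intervals overlapped, and the ratio of 0.586 had an interval of 0.344 to 0.966 that came close to 1.

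The order of the genes was compared per kb of locus, a scale on which the number of SNPs in each gene, not known here, also enters. In the adult, Kcnj3 was highest at 17.4 RPM per kb (17.2 to 17.6), followed by Kcnip2 at 4.04 (3.79 to 4.31) and Kcnd2 at 3.84 (3.79 to 3.90), which did not differ beyond their intervals. Kcnj11 at 1.73 (1.33 to 2.21) and Kcnj2 at 1.54 (1.31 to 1.80) also overlapped, and Kcnd3 at 1.11 (1.06 to 1.15) and Kcnh2 at 0.889 (0.787 to 0.999) were the lowest of the 7. In the aged heart, Kcnip2 at 2.53 RPM per kb (2.28 to 2.81) and Kcnj3 at 2.42 (2.33 to 2.51) had overlapping intervals. Kcnd2 at 1.17 (1.13 to 1.20) and Kcnj11 at 1.01 (0.634 to 1.53) overlapped too, and Kcnh2 at 0.633 (0.524 to 0.758), Kcnj2 at 0.549 (0.380 to 0.768) and Kcnd3 at 0.50 (0.462 to 0.540) formed the low end. Of all reads of the set, Kcnj3 held 57.8% (57.4 to 58.2) at 9 weeks and 36.0% (34.9 to 37.1) in the aged heart, and Kcnd2 35.2% (34.8 to 35.6) and 47.8% (46.7 to 49.0). The leading gene thus changed between the libraries, from 1.64 reads of Kcnj3 per read of Kcnd2 to 0.753.

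The alleles gave a second reading of the same nuclei. The intervals of the allelic ratio lay apart between the ages for 3 of 7 genes, Kcnip2, Kcnd3 and Kcnj3, beside 11.8% of 12390 autosomal genes with at least 20 reads in each library. This share rises with depth, from 4.92% of genes with 20 to 99 reads in the shallower library through 14.1% with 100 to fewer than 1000 reads to 31.7% with 1000 or more. Kcnj2 and Kcnj11 fell in the first class, Kcnd3, Kcnip2 and Kcnh2 in the second, and Kcnd2 and Kcnj3 in the third. The interval lay above 0.5 in both libraries for 3 of 7 genes (Kcnd2, Kcnj2 and Kcnj3), beside 23.5% of autosomal genes, and below 0.5 in both for 0 of 7, beside 6.6%.

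Kcnip2 had 539 BL6 and 410 CAST reads at 9 weeks, an allelic ratio of 0.568 (0.536 to 0.600), and 111 BL6 and 243 CAST reads at 78 weeks, a ratio of 0.314 (0.266 to 0.365). The favoured allele was BL6 at 9 weeks and CAST in the aged heart, and both intervals excluded 0.5. The change of -0.254 (-0.310 to -0.195) was matched or passed in size by 21 of the 5893 genes of its depth class, including itself, or 0.356%, while the median size of the change in that class was 0.0461. By allele, BL6 reads of Kcnip2 stood at 55.3 RPM (50.7 to 60.2) at 9 weeks and 19.1 RPM (15.7 to 23.0) at 78 weeks, a ratio of 0.346 (0.279 to 0.425). CAST reads stood at 42.1 RPM (38.1 to 46.3) and 41.9 RPM (36.8 to 47.5), a ratio of 0.995 (0.846 to 1.17). On the scale of all reads, the lower level of Kcnip2 at 78 weeks was therefore made of BL6 reads. Another scale would multiply the ratios of both alleles alike, so the CAST ratio near 1 holds on this scale only. The ratio of both ratios, 0.348 (0.266 to 0.453), does not depend on the scale.

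**Figure D2:**
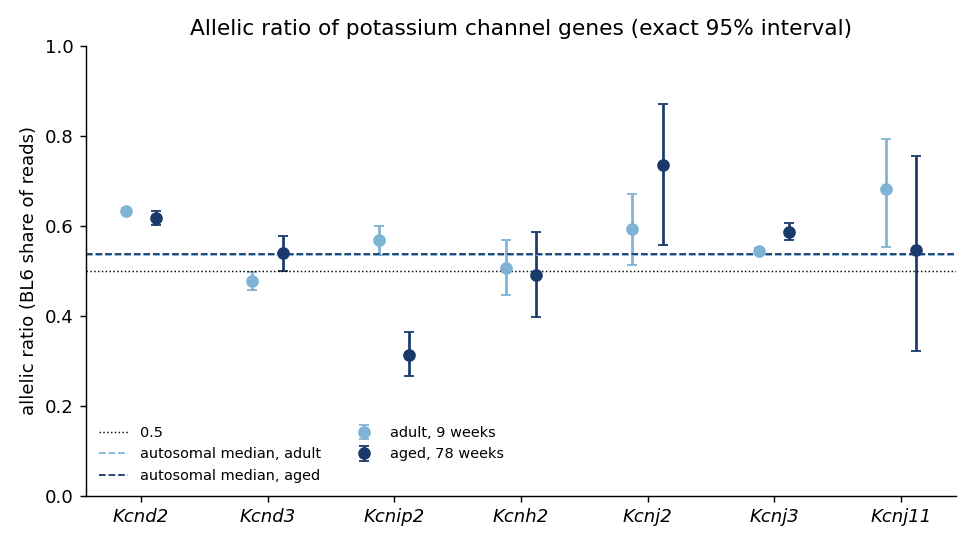
Allelic ratio (BL6 share of SNP-overlapping reads) of the 7 genes at 9 weeks (light, adult) and 78 weeks (dark, aged) with exact 95% intervals; dashed lines are the autosomal medians, 0.534 and 0.537, and the dotted line is 0.5. Kcnip2 goes from 0.568 to 0.314, while the other genes stay at or above 0.478 at both ages.

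The other 2 genes with separate intervals moved by less and toward BL6. Kcnd3 had 1146 BL6 and 1251 CAST reads at 9 weeks (allelic ratio 0.478, 0.458 to 0.498) and 347 and 297 at 78 weeks (0.539, 0.499 to 0.578), a change of 0.0607 (0.0172 to 0.104). In its class of depth, 2284 of 5893 genes changed as much. Kcnj3 had 17235 BL6 and 14415 CAST reads at 9 weeks (0.545, 0.539 to 0.550) and 1536 and 1080 at 78 weeks (0.587, 0.568 to 0.606), a change of 0.0426 (0.0229 to 0.0621). Both loci overlap another listed one, Kcnd3 with Kcnd3os over 753 bases (51 adult and 22 aged reads) and Kcnj3 with LOC108168758 over 6402 bases (21 and 6 reads). Whether strand was used in counting is not given in the sources used here, so reads of such pairs are uncertain.

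Kcnd2 favoured BL6 at both ages, with 12199 BL6 and 7053 CAST reads at 9 weeks (allelic ratio 0.634, 0.627 to 0.640) and 2146 and 1328 in the aged heart (0.618, 0.601 to 0.634). Its intervals overlapped, and the change of -0.0159 had an interval of -0.0336 to 0.0015. Kcnh2 was near balance, with 141 BL6 and 137 CAST reads at 9 weeks (0.507, 0.447 to 0.567) and 58 and 60 at 78 weeks (0.492, 0.398 to 0.585). For the shallow genes a change could not be resolved: Kcnj2 had 95 BL6 and 65 CAST reads at 9 weeks (0.594, 0.513 to 0.671) and 25 and 9 at 78 weeks (0.735, 0.556 to 0.871). Kcnj11 had 43 and 20 reads at 9 weeks (0.683, 0.553 to 0.794) and 12 and 10 at 78 weeks (0.545, 0.322 to 0.756).

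Taken by allele, the RPM of BL6 reads was lower at 78 weeks for 7 of 7 genes, each with an interval of the ratio below 1, and that of CAST reads for 4 of 7. Under this rule of the interval alone, 19.2% of the 13508 autosomal genes were lower in BL6 reads and 18.7% in CAST reads. For Kcnd2 the BL6 ratio was 0.295 (0.282 to 0.309) and the CAST ratio 0.316 (0.298 to 0.335). For Kcnj3 they were 0.150 (0.142 to 0.158) and 0.126 (0.118 to 0.134), and for Kcnd3 0.508 (0.450 to 0.574) and 0.399 (0.350 to 0.453). Both alleles of these genes were thus lower in the aged heart. Kcnj2 had a BL6 ratio of 0.442 (0.272 to 0.692) and a CAST ratio of 0.233 (0.102 to 0.469). The 3 genes whose CAST interval reached 1 were Kcnip2, Kcnh2 with a CAST ratio of 0.735 (0.534 to 1.00) and Kcnj11 with 0.840 (0.351 to 1.88). Both alleles come from the same nuclei and are not replicates.

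**Figure D3:**
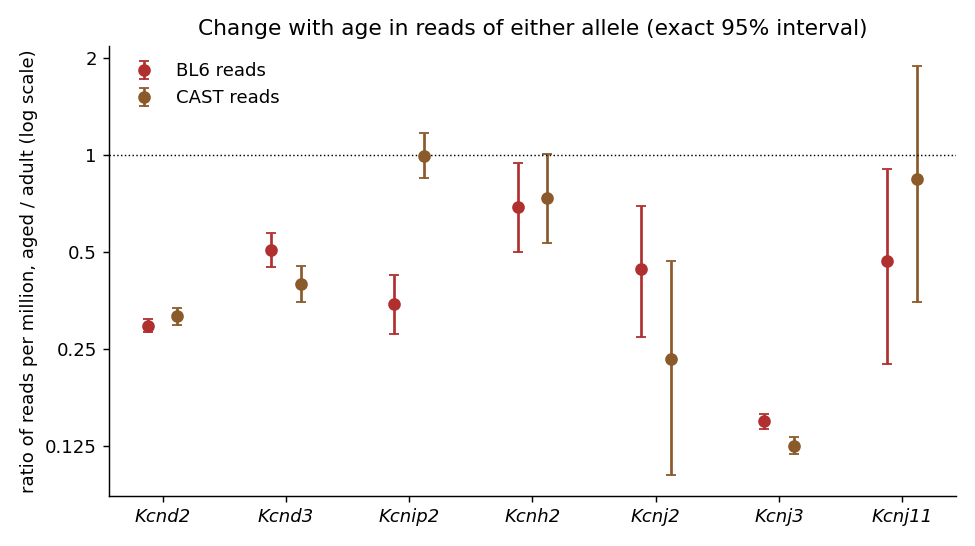
Ratio of aged to adult RPM (log axis) of the BL6 and the CAST allele of the 7 genes, with exact 95% intervals; the dotted line at 1 is no difference. Both alleles lie near each other for Kcnd2, and for Kcnip2 the CAST ratio of 0.995 stands apart from the BL6 ratio of 0.346.

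The loci beside Kcnip2 did not show its shift. Mgea5, at 8.79 kb, had allelic ratios of 0.616 (0.582 to 0.650) at 9 weeks and 0.696 (0.654 to 0.736) at 78 weeks, and 9130011E15Rik, at 0.932 kb, had 0.524 (0.508 to 0.540) and 0.568 (0.547 to 0.589). Both moved toward BL6, opposite to Kcnip2. Over the 32 genes within 1 Mb of Kcnip2 with at least 20 reads in each library, the change ran from -0.176 to 0.314 with a median of 0.0063. Next to Kcnd2, Tspan12 at 41.6 kb had a ratio of aged to adult RPM of 0.887 (0.803 to 0.981) and Gm38772 at 246 kb one of 0.332 (0.228 to 0.473). Kcnj11 lies 3.66 kb from Abcc8, which encodes a sulfonylurea receptor, the regulatory subunit of ATP-sensitive channels. Abcc8 stood at 63.8 RPM at 9 weeks and 24.1 RPM at 78 weeks, a ratio of 0.378 (0.312 to 0.455), and nearby Nomo1 at 12.9 kb had a ratio of 1.84 (1.51 to 2.23). Beside Kcnd3, Ddx20 at 4.27 kb had a ratio of 1.86 (1.43 to 2.42) and Cttnbp2nl at 399 kb one of 0.976 (0.807 to 1.18). Beside Kcnh2, Nos3 at 13.1 kb had a ratio of 2.73 (2.15 to 3.47) and Nupl2 at 136 kb one of 0.908 (0.682 to 1.20). The nearest genes with enough reads lay farther from the other members. For Kcnj2 they were Map2k6 at 550 kb, with a ratio of 0.452 (0.394 to 0.517), and Sox9 at 1705 kb, with 2.51 (1.85 to 3.42). For Kcnj3 they were Galnt13 at 293 kb, with 1.56 (0.878 to 2.76), and Nr4a2 at 1509 kb, with 1.38 (1.06 to 1.80). For Kcna5 they were Ntf3 at 366 kb, with 1.24 (1.02 to 1.52), and Ndufa9 at 286 kb, with 1.11 (0.680 to 1.78).

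To place the 8 genes among other potassium channel genes, 5 lists of 71 partners and relatives were read by the same rules. Of these, 63 were listed in both libraries and 42 had at least 40 reads. Of the 42, 10 were lower at 78 weeks, 15 were higher and 17 were neither. Over 13508 autosomal genes, 13.7% were lower and 25.9% were higher by these rules. The median ratio of the 42 was 0.994, beside 1.14 over all genes tested.

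Of 8 transient outward partners with enough reads, 6 were higher at 78 weeks and 1 was lower, with a median ratio of 2.5. Kcna4, which encodes the pore of the slow transient outward current, stood at 12.8 RPM at 9 weeks and 3.44 RPM in the aged heart, a ratio of 0.269 (0.159 to 0.433). The relatives of Kcnip2 went the other way. Kcnip1 had a ratio of 3.00 (2.5 to 3.61), Kcnip3 of 5.32 (3.32 to 8.80) and Kcnip4 of 2.01 (1.83 to 2.20). Kcnip4 was also the deepest of them, at 91.0 RPM at 9 weeks and 183 RPM at 78 weeks, and its allelic ratio went from 0.368 (0.336 to 0.400) to 0.241 (0.215 to 0.267), but its locus shares 18722 bases with 5730480H06Rik. The locus of Kcnip1 overlaps others too, with Gm12119 over 51852 bases (4 adult and 21 aged reads) the longest. Dpp6 and Dpp10, which encode transmembrane partners of Kv4 channels, had ratios of 2.42 (1.79 to 3.28) and 2.58 (1.90 to 3.51). Among the beta subunits, Kcnab2, on 18 adult and 42 aged reads, had a ratio of 3.92 (2.21 to 7.23). Its locus shares 3670 bases with Nphp4, which had 31 adult and 37 aged reads. Kcnab1, which overlaps A330015K06Rik, had a ratio of 1.47 (1.36 to 1.58) that was under 1.5-fold.

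Of 11 delayed rectifier genes with enough reads, 5 were lower and 4 were higher. Kcnq1, the pore of the slow delayed rectifier, stood at 551 RPM at 9 weeks and 267 RPM at 78 weeks, a ratio of 0.485 (0.458 to 0.513), but 83437 bases of its locus are shared with Kcnq1ot1, which had 2468 adult and 871 aged reads. Kcnh7, a relative of Kcnh2, had a ratio of 0.248 (0.184 to 0.328), and Kcnv2, a modifying subunit, one of 0.252 (0.136 to 0.436). Kcnb2 and Kcnq5 were lower too, with ratios of 0.498 (0.396 to 0.623) and 0.629 (0.584 to 0.678). The higher genes were Kcnq3 at a ratio of 3.40 (2.25 to 5.23), Kcnh1 at 2.80 (1.95 to 4.04), Kcns3 at 1.77 (1.26 to 2.5) and Kcnc2 at 1.59 (1.44 to 1.75).

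Of 6 inward rectifier and ATP-sensitive genes with enough reads, 2 were lower and 0 were higher, with a median ratio of 0.700. Besides Abcc8 the lower gene was Kcnj13, at 0.576 (0.346 to 0.927), which shares 10153 bases with Gigyf2. Kcnj5 encodes the subunit that joins the product of Kcnj3 in the acetylcholine-gated channel. It stood at 39.5 RPM at 9 weeks and 28.2 RPM at 78 weeks, a ratio of 0.715 (0.592 to 0.861), so that Kcnj3 took 98.8% (98.7 to 98.9) of the reads of both genes at 9 weeks and 94.1% (93.2 to 94.9) in the aged heart. Kcnj12, the other classical inward rectifier subunit, had a ratio of 0.684 (0.574 to 0.813) in a locus shared in part with LOC108167904. Kcnj2 took 25.8% (22.4 to 29.5) of the reads of both at 9 weeks and 15.4% (10.9 to 20.8) at 78 weeks. Abcc9, the sulfonylurea receptor of ventricular muscle, had a ratio of 0.853 (0.681 to 1.06), and its locus shares 11868 bases with 5330439B14Rik.

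Of 12 two-pore and calcium-activated genes with enough reads, 1 was lower and 4 were higher, with a median ratio of 1.07. Kcnn2, a small-conductance calcium-activated channel, went from 885 RPM at 9 weeks to 174 RPM at 78 weeks, a ratio of 0.196 (0.184 to 0.210), with 80029 bases shared with Gm31907. Kcnma1, the large-conductance channel, went from 52.5 RPM to 150 RPM, a ratio of 2.85 (2.55 to 3.19). Kcnk6, Kcnk13 and Kcnn3 were higher at ratios of 2.22, 1.86 and 1.82, while Kcnt2, Kcnk2 and Kcnk3 passed neither rule, at 1.14, 1.499 and 0.912. The locus of Kcnt2 shares 43787 bases with 4930590L20Rik. Of the 5 genes that anchor or organize channels, Ank2, the ankyrin that places channels in cardiomyocyte membranes, was lower at 0.637 (0.623 to 0.653). Dlg1, Akap9 and Cav3 had ratios of 0.956, 0.90 and 1.30, and the locus of Cav3 shares 4384 bases with Gm35649 (110 adult and 104 aged reads).

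Of 37 partner genes with at least 20 reads in each library, 10 had separate allelic ratios, beside 11.8% of 12390 autosomal genes. That share rises with depth, from 4.92% with 20 to 99 reads in the shallower library to 31.7% with 1000 or more. The 10 partner genes moved in both directions. Toward CAST went Kcnip4, Kcnq1 (0.487 to 0.377), Kcnk13 (0.676 to 0.537), Akap9 (0.537 to 0.486) and Kcnt2 (0.571 to 0.541). Toward BL6 went Kcnn1 (0.429 to 0.90, on 35 and 20 reads), Kcnb2 (0.115 to 0.272), Kcnc2 (0.832 to 0.923), Kcnq5 (0.133 to 0.199) and Ank2 (0.541 to 0.597). Kcnq5 and Kcnb2 were thus read mainly from CAST and Kcnc2 mainly from BL6 at both ages. The Kcnq1 locus shares 83437 bases with Kcnq1ot1 (2468 adult and 871 aged reads), so its allelic ratio cannot be given to Kcnq1 alone. Kcnip4, Akap9, Kcnt2, Kcnn1 and Ank2 overlap other listed loci too, so their allelic ratios carry the same limit.

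**Figure D4:**
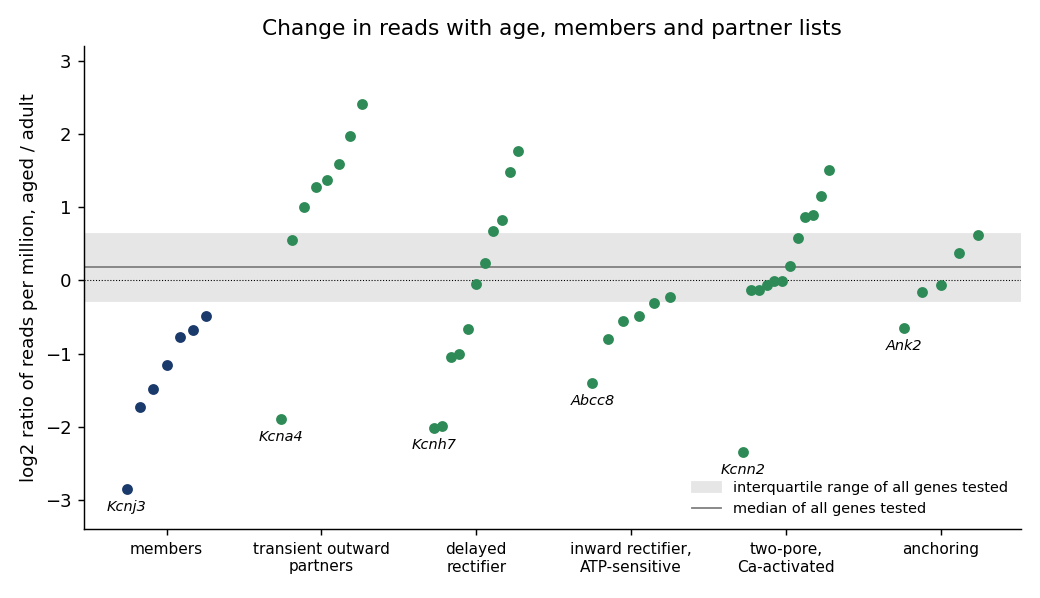
Ratio of aged to adult RPM (log2 axis) of each tested gene in the set of 8 (blue, called members) and in the 5 partner lists (green), ordered by value within a list with its lowest gene named; the band is the interquartile range and the solid line the median of all 13508 genes tested. The 7 tested members all lie below 0, and the partner lists lie on both sides of it except the 6 inward rectifier and ATP-sensitive genes, which all lie below it.

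Cell type markers also differed between the libraries, and their part in these results was not tested. The summed RPM of the 10 cardiomyocyte markers had a ratio of 0.932 (0.927 to 0.938). Of them Ttn alone was lower, at 0.580, and the other 9 ran from 0.976 to 1.39. The cardiomyocyte sum was set mostly by Ttn and Ryr2, with 115497 and 117632 of 309420 adult reads. At 78 weeks these 2 genes had 39896 and 80439 of 171842 reads. The 5 atrial markers went from 199 to 162 RPM, a ratio of 0.815 (0.753 to 0.881). In this list Nppa was at 0.818, Myl4 at 0.884, Sln at 0.661 and Myl7 at 0.442, while Bmp10 had 29 reads at 9 weeks and 1 at 78 weeks. The 3 ventricular markers went from 117 to 210 RPM (1.78, 1.64 to 1.94). No marker of these lists was at 0 in either library.

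Among other cells, summed markers were higher at 78 weeks for smooth muscle (ratio 3.02, 100 to 303 RPM), pericytes (2.12, 97.7 to 207), macrophages (1.67, 318 to 530), fibroblasts (1.57, 695 to 1090), endothelial cells (1.45, 739 to 1075) and Schwann cells and neurons (1.26, 112 to 141). They were lower for mesothelium (0.245, 46.5 to 11.4), and the intervals for lymphocytes (0.920, 43.8 to 40.3) and adipocytes (0.892, 23.0 to 20.5) included 1. Of these lists, 3 markers were not listed in both libraries, Cd3e and Th among them. The fibroblast sum was set mostly by Dcn, with 4492 of 6776 adult and 4486 of 6327 aged reads. Of 7 fibroblast markers with enough reads, 4 were higher, 2 were neither and 1 was lower, Col3a1 at 0.654 (0.547 to 0.778).

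The count of lower genes was therefore also read on other scales. Scaled by the median of gene ratios, which multiplies each ratio by 0.864, 7 of 7 genes were lower, and 19.9% of all genes were lower and 17.1% higher. Scaled by the cardiomyocyte markers, 4 of 7 were lower (Kcnj3, Kcnd2, Kcnj2 and Kcnd3), beside 11.5% of all genes. Kcnip2 was then at 0.672 (0.593 to 0.760), Kcnh2 at 0.764 (0.611 to 0.951) and Kcnj11 at 0.629 (0.368 to 1.04). Without Ttn among those markers 7 of 7 were lower, beside 19.4% of all genes. The chamber scales were added after seeing the data: by atrial markers the same 4 genes were lower, beside 8.4% of all genes, with Kcnj3 at 0.170 (0.164 to 0.177). By ventricular markers 7 of 7 were lower, with Kcnj3 at 0.0778, but so were 52% of all genes. Against each of the 10 cardiomyocyte markers alone, Kcnj3 ran from 0.100 to 0.239, Kcnd2 from 0.219 to 0.522, Kcnj2 from 0.258 to 0.615 and Kcnd3 from 0.326 to 0.778, lowest against Actn2 and highest against Ttn. Against Ttn, Kcnip2 was at 1.08, Kcnh2 at 1.23 and Kcnj11 at 1.01, so these 3 genes were above 1 on that scale.

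**Figure D5:**
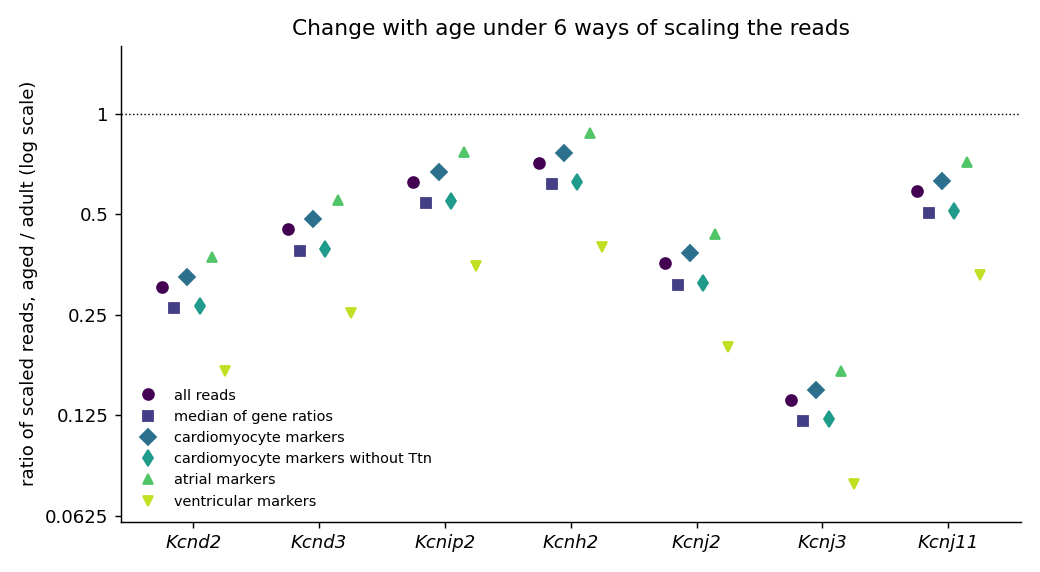
Ratio of aged to adult level (log axis) of the 7 genes when reads are scaled by all reads, by the median of gene ratios, or by the summed reads of 4 sets of cardiomyocyte, atrial and ventricular markers; the dotted line at 1 is no difference. Every point lies below 1, with Kcnj3 between 0.0778 and 0.170.

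Locus length moved with the ratio as well. The median ratio was 1.33 for 2646 genes under 10 kb, 1.13 for 8696 genes of 10 to 100 kb and 0.989 for 2166 genes over 100 kb, and 8.88%, 13.2% and 21.7% of them were lower at 78 weeks. Kcnd2 (514 kb), Kcnd3 (222 kb) and Kcnj3 (186 kb) fell in the long class, Kcnip2, Kcnh2 and Kcnj2 in the middle class and Kcnj11 (3.75 kb) in the short class. The 3 long genes, at 0.303, 0.451 and 0.139, were all below the median of their class, and so were the other 4. The part of length in these ratios was not tested.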

How the data were processed

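Sorted nuclei of 1 heart at 9 weeks and 1 at 78 weeks were barcoded and sequenced by 10x Genomics 3′ chemistry. Per the labels and the methods of the study, the authors aligned reads with Cell Ranger 7.1.0 to mm10 (GRCm38), split them by nucleus with sinto, pooled the nuclei whose active X chromosome was BL6 and counted SNP-overlapping reads per RefSeq locus with Allelome.PRO2. They removed doublets from the filtered count matrices with DoubletFinder and ambient RNA with CellBender; whether either step applied to the reads pooled here is not given in the sources used here. The deposited counts (BL6, CAST and total reads) are raw and list genes from 1 read on. The deposited allelic ratio is a fraction rounded to 2 decimals, so it was recomputed from the counts. A score of allelic bias was not used. The aged file name carries another number of weeks than the labels, and the labels were followed. Starts are counted from 0 in the files and were raised by 1.

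Ratios of RPM have exact conditional binomial intervals, shares and allelic ratios Clopper-Pearson intervals, levels Poisson intervals and changes of the allelic ratio Newcombe intervals, all at 95%. A level was called from 1.5-fold with an interval excluding 1, in autosomal genes with 40 reads over both libraries. An allelic ratio was called separate where intervals did not overlap, with at least 20 reads in each library. These are rules of counting error, not tests of age. All 8 genes were named, and from the partner lists those with 100 reads in each library or past either rule. Beside each gene, overlapping loci and the nearest on either side with 20 reads in each library were read. A few marker genes were named after their values were seen. The 8 genes and all lists (5 of partners, 13 of cell type markers) were chosen with earlier results of these data known. Alternatives covered scales, folds, interval levels, read minimums, single alleles, overlapping loci and each gene left out. Python 3.11.15, numpy 2.4.6, pandas 2.3.3 and scipy 1.17.1 were used. The code of the intervals was run on reads simulated from the Poisson and binomial models that they assume. Those reads held no duplicates and no variation between animals, so the run says nothing on either. Promoters came from the RefSeq table of GRCm38.p6. Results that rest on certain genes, among them 1 list of markers, are not reported here.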

Additional observations from a re-analysis of the deposited data

How the results depend on the processing

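No paired analysis was possible because each age has 1 library. The count of 6 lower genes of 7 ran from 4 to 7 over the alternatives, and the count of higher genes stayed at 0 in each. Leaving out Kcnd3 and Kcnj3 for their overlapping loci gave 4 lower among the genes that remained. Scaling by Ttn alone was not counted among these alternatives, and there Kcnd3 was at 0.778, short of 1.5-fold. The count of 3 separate allelic ratios became 1, Kcnip2, without Kcnd3 and Kcnj3, whose loci overlap others, by construction.

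The summed ratio of 0.223 became 0.192 scaled by the median of gene ratios, 0.239 by cardiomyocyte markers, 0.195 by those markers without Ttn, 0.273 by atrial and 0.1248 by ventricular markers. It was 0.179 without Kcnd2, 0.212 without Kcnd3, 0.216 without Kcnip2, 0.338 without Kcnj3 and 0.512 without both Kcnj3 and Kcnd2, and the median of the ratios of the genes was 0.451. Of 49 ratios of single genes on other scales of summed reads or of gene ratios, 28 stayed within the counting interval, 21 moved outside it and 0 changed direction, and against Ttn alone Kcnip2, Kcnh2 and Kcnj11 did, at 1.08, 1.23 and 1.01. All 14 allelic ratios as deposited lay within the intervals computed here.

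The limits are those of 1 library per age. No interval covers variation between animals, sorts or library preparations, and age cannot be told apart from any of these. Depth limits Kcnj11 and Kcnj2, with 22 and 34 aged reads, and gives Kcna5 no usable value.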
